A study of Homo sapiens with 24 samples.

Results

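The genes described are 10 that mark the epithelial or the mesenchymal state of a cell: CDH1 and EPCAM on the epithelial side, CDH2, VIM and FN1 on the mesenchymal side, and the transcription factors SNAI1, SNAI2, ZEB1, ZEB2 and TWIST1. They were taken by symbol from the 63299 genes of the deposited count table, whatever their values, and each symbol matched 1 Ensembl identifier. Of the 10, 9 passed the filter on low counts and were among the 20240 genes tested, and CDH1 did not pass.

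Epithelial cells hold to each other through E-cadherin, the product of CDH1, whereas mesenchymal cells have lost these junctions, carry N-cadherin and vimentin, and move more freely. The passage from the first state to the second, epithelial-mesenchymal transition, is driven by repressors of the SNAI, ZEB and TWIST families, which bind E-box sequences (CAGGTG and its reverse complement CACCTG among them) in the promoters of epithelial genes such as CDH1. Many tumour cells keep a mixed or mesenchymal state, and in ovarian cancer this state has been discussed together with invasion and drug resistance.

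Total RNA was sequenced from the ovarian cancer cell line A2780, which is platinum-sensitive, and from its isogenic derivative A2780cis, which is platinum-resistant. Both lines were grown in standard medium as control or with 1 µM 5-FdU-ECyd, a duplex prodrug that joins 2'-deoxy-5-fluorouridine and 3'-C-ethynylcytidine, for 6 h or 12 h. This gives 8 groups of 3 libraries, 24 in all: for each line, control at 6 h, 5-FdU-ECyd at 6 h, control at 12 h and 5-FdU-ECyd at 12 h. The handling of A2780cis differed from that of A2780 as well, since its medium held 1 µM cisplatin for 1 passage in every few passages. More cells were also seeded for A2780cis than for A2780 before sequencing. Each line is a single culture lineage, so that a difference between the lines is a difference between these 2 lines and not between sensitive and resistant cells in general. The methods speak of triplicates without stating separate cultures, and p-values measure the spread between these libraries, which may be technical.

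Between 11077368 and 21901406 reads per library were counted on exons. Levels are given as CPM (counts scaled to a common library size, TMM-normalized) and as CPM per kilobase of annotated exon where genes are compared with each other. A rise or fall is therefore relative to the other genes of the library. The paper describes 3'-C-ethynylcytidine as an inhibitor of RNA synthesis, and total RNA per cell is not given. A gene was called when edgeR's quasi-likelihood test gave a Benjamini-Hochberg adjusted p of at most 0.05 over all genes tested, and log2 FC is the fitted log2 fold change. Where no library of a group exceeded 3 counts, the gene is called at the floor, and the fold given is a lower bound that sets each such library to 3 counts. In bulk RNA a lower level in every cell cannot be told apart from fewer cells that carry the transcript. Markers of the labelled tissue were mostly absent: 8 of 9 genes of an ovarian carcinoma list, among them PAX8, WT1 and MUC16, did not pass the filter, and only FOLR1 did. None of 4 endothelial markers passed, and of 5 immune markers only CD68 did, which was called higher in untreated A2780cis over both times (log2 FC 1.24). Of 5 fibroblast markers (DCN, LUM, PDGFRA, FAP and COL1A1) 4 passed, with a summed level of 192 to 209.5 CPM in A2780 controls at 6 h and 5.52 to 6.30 CPM in A2780cis controls at 6 h. At 12 h the sums were 172 to 185 and 4.72 to 5.63 CPM in the controls and 65.7 to 69.8 and 4.71 to 4.86 CPM in treated cells. The sum hides opposite moves, since 1 of the 4 was called higher and 1 lower after 12 h of treatment in each line. The shares of all tested genes were 28.6% higher and 26.1% lower in A2780, and 31.0% and 28.9% in A2780cis. EPCAM, CDH2, FN1, SNAI2, ZEB1, ZEB2 and TWIST1 were lower in untreated A2780cis as the fibroblast sum was, while SNAI1 was higher. The part of the fibroblast signal in these differences was not tested.

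The start regions of CDH2, VIM and ZEB1 are shown because these 3 genes fell after 12 h of treatment in both lines. The sequences are those of RefSeq on GRCh38.p14, the 250 bases before a start site, 5' to 3' on the strand of the gene, with capitals for 2 kinds of short motif searched on both strands: the E-box (CAGGTG or CACCTG) and the GC box (GGGCGG or CCGCCC).
CDH2, chr18:28177131-28177380, minus strand: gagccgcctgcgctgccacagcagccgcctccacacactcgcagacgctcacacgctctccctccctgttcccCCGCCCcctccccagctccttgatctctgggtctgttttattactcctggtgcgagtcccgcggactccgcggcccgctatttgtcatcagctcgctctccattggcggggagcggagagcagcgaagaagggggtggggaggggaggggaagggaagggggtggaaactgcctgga
VIM, chr10:17227991-17228240, plus strand: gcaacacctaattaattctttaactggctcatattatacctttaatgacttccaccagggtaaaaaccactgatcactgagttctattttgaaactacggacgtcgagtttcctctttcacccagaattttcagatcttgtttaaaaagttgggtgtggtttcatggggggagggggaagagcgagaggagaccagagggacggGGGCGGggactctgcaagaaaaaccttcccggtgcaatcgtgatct
ZEB1, chr10:31318167-31318416, plus strand: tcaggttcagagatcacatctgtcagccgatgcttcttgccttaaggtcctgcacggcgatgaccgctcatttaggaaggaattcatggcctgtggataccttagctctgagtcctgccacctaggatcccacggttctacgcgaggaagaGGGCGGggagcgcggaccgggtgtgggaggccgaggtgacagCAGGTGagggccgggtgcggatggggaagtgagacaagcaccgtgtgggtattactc
Each of these windows holds 1 GC box, which 42.6% of 35116 promoter windows of the same length also hold. The window of ZEB1 also holds 1 E-box (CAGGTG), which begins 57 bases before the start site, while those of CDH2 and VIM hold no match to it. An E-box was found in 17.5% of the windows. ZEB1 has 7 listed start windows and the one printed is the most upstream, and that of CDH2 is the more upstream of 2. The other ZEB1 windows hold from 0 to 2 E-boxes, most of them 0, and from 0 to 3 GC boxes. The other CDH2 window holds neither motif. RefSeq windows were matched for 5 of the 10 genes (CDH2, VIM, FN1, ZEB1 and ZEB2), and those of ZEB2 and FN1, which reach into exons, are not printed. A match of letters does not show that a factor binds.

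The microRNAs of the miR-200 family are the best known repressors of ZEB1 and ZEB2 after transcription, and their 3' arms from the locus on chromosome 12 are shown with the seed (bases 2 to 8) in capitals.
hsa-miR-200c-3p: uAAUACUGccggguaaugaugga
hsa-miR-141-3p: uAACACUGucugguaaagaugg
The seeds of the pair differ, so that they fall in different seed groups. Mature microRNAs were not measured in these libraries. Their host transcript MIR200CHG never exceeded 1 count in a library.

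In untreated cells VIM was the most abundant of the 10 genes in both lines and CDH1 was at or near 0. CDH2 was far lower in A2780cis than in A2780, TWIST1 and ZEB2 were at the floor there, and SNAI1 was higher. All 9 tested genes were called between the lines over the mean of both times, 2 higher in A2780cis (SNAI1 and VIM) and 7 lower, against a background of 61.3% of all tested genes called, 31.1% higher and 30.2% lower. Their median log2 FC was -1.22, against 0.00 over all genes tested, and it stays the same with ZEB2 and TWIST1 at their bounds. With the controls of both times pooled, the libraries of the lines did not overlap for 5 of the 9, CDH2, SNAI1, SNAI2, ZEB2 and TWIST1, against 31.3% of all tested genes. At 6 h alone 8 were called, 2 higher and 6 lower, against 47.9% of all tested genes (25.0% higher and 22.9% lower), and 8 did not overlap, against 52.0%. At 12 h alone 8 were called, 1 higher and 7 lower, against 52.9% (25.4% higher and 27.5% lower), and 7 of the tested genes, or all but VIM and ZEB1, did not overlap, against 62.3%.

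CDH1 (chr16:68737292-68835537, plus strand) encodes E-cadherin, the adhesion protein whose loss defines the transition. It had no count in any of the 6 untreated A2780 libraries, and its highest count in any of the 24 libraries was 2. In 17 of the 24 it was at 0, and all libraries together held 7.3 counts. A count of 0 allows up to 3 counts, which is 0.216 CPM on average in an untreated library, so that no difference between lines or treatments was detectable at this depth. The counting limits given here cover counting error only.

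EPCAM (chr2:47345158-47387601, plus strand) encodes an epithelial adhesion molecule and was near the lower end of detection, with at most 28 counts in a library. Control A2780 libraries had 1.01, 0.473 and 0.546 CPM at 6 h and 0.858, 0.695 and 1.28 CPM at 12 h. Control A2780cis libraries had 0.185, 0.301 and 0.491 CPM at 6 h and 0.289, 0.112 and 0.162 CPM at 12 h. At 12 h every A2780 control lay above every A2780cis control, and at 6 h the highest A2780cis library overlapped the A2780 range. Over both times EPCAM was lower in A2780cis (log2 FC -1.66 ± 0.35 (SE), adjusted p = 0.000204), a 3.17-fold difference. At 6 h alone the difference was not called (log2 FC -1.05 ± 0.53 (SE), adjusted p = 0.107).

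CDH2 (chr18:27932879-28177946, minus strand) encodes N-cadherin, the cadherin that mesenchymal cells carry in place of E-cadherin. Control A2780 libraries had 51.8, 55.6 and 41.7 CPM at 6 h and 44.2, 43.9 and 50.8 CPM at 12 h. The A2780cis controls had 5.45, 7.42 and 4.91 CPM and 3.85, 4.88 and 4.21 CPM at the same times. No A2780cis library came near the lowest A2780 library, and the fitted level was 9.52-fold lower in A2780cis (log2 FC -3.25 ± 0.10 (SE), adjusted p = 3.49e-20). VIM (chr10:17228241-17237593, plus strand) encodes vimentin, the intermediate filament of mesenchymal cells. Its A2780 controls had 1951, 2242 and 2078 CPM at 6 h and 2276, 2286 and 2540.3 CPM at 12 h. Its A2780cis controls had 2359, 2769 and 2723 CPM and 2243, 2374 and 2414 CPM. The A2780cis libraries were higher at 6 h (log2 FC 0.32 ± 0.09 (SE), adjusted p = 0.00496), and at 12 h the groups overlapped (log2 FC -0.01, 95% interval -0.20 to 0.18). The call over both times (log2 FC 0.15 ± 0.07 (SE), adjusted p = 0.0424) was lost with other scalings and kept only when the library left out was A2780 control 6 h replicate 2, A2780cis control 6 h replicate 1, A2780 control 12 h replicate 3 or A2780cis control 12 h replicate 1. Without any other of the 12 libraries the log2 FC was 0.11 to 0.15.

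FN1 (chr2:215360440-215436073, minus strand) encodes fibronectin, a matrix protein that mesenchymal cells secrete. The A2780 controls had 3.59, 3.22 and 2.91 CPM at 6 h and 2.44, 2.72 and 2.00 CPM at 12 h. The A2780cis controls had 1.66, 2.01 and 1.23 CPM and 0.915, 0.730 and 0.972 CPM, below A2780 at each time with no overlap. FN1 was 2.33-fold lower in A2780cis over both times (log2 FC -1.22 ± 0.15 (SE), adjusted p = 1.30e-07). For a mesenchymal marker its level was low in both lines.

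**Figure D1:**
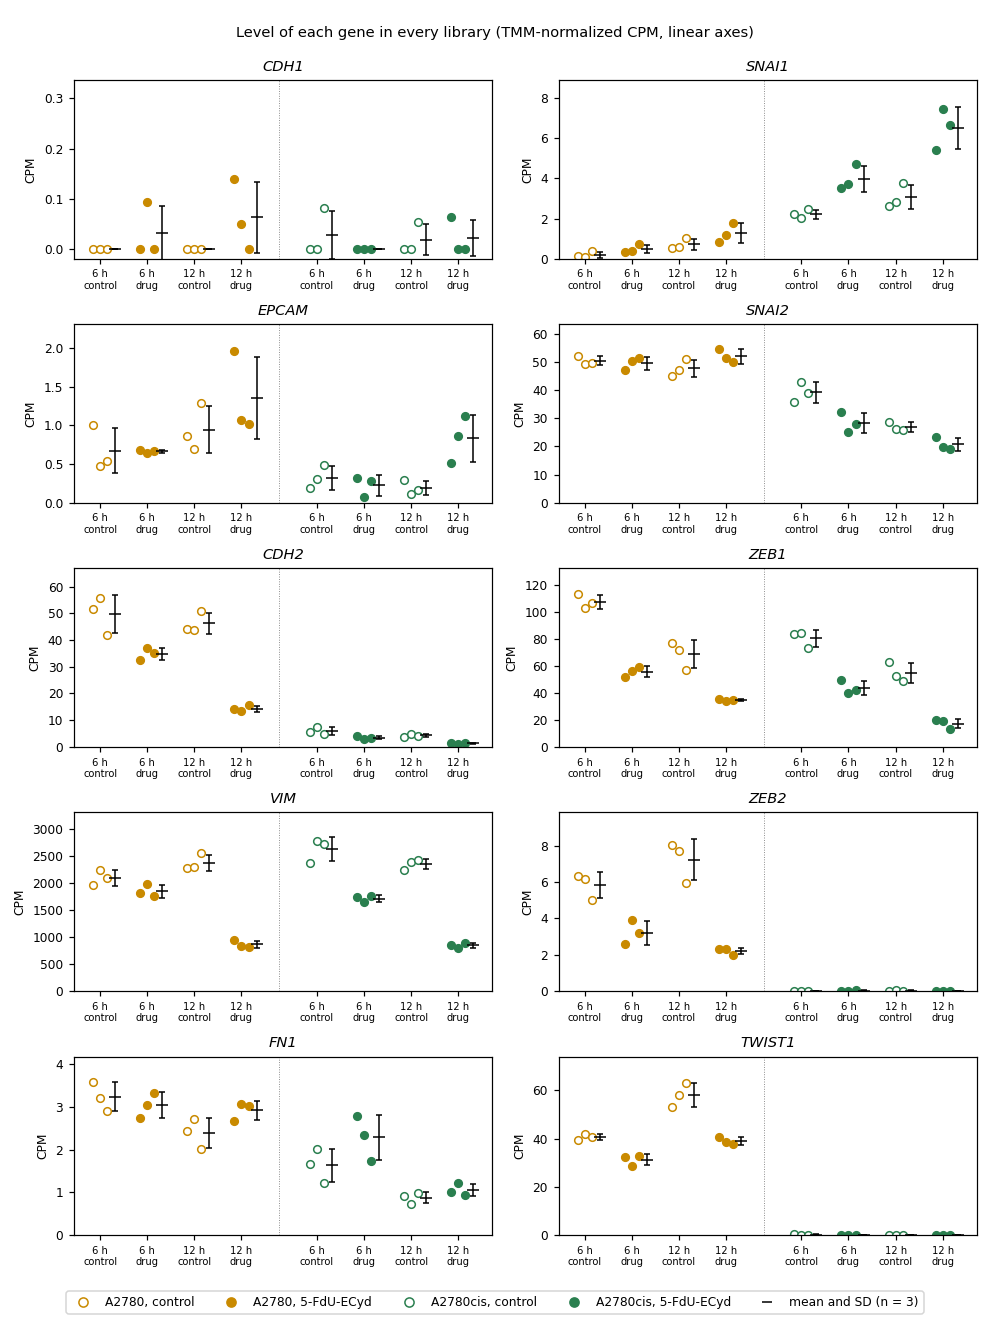
Level of each of the 10 genes in every library, in TMM-normalized CPM on linear axes, by line, time and treatment, with the mean and SD of 3 libraries beside the points. TWIST1 and ZEB2 lie at or next to 0 in all 12 A2780cis libraries, CDH1 in all 24 libraries, and CDH2, VIM and ZEB1 step down with 5-FdU-ECyd at 12 h in both lines.

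SNAI1 (chr20:49982980-49988886, plus strand) encodes Snail, a zinc finger repressor of CDH1, and was the one factor of the 5 that was higher in A2780cis. Control A2780 libraries had 0.144, 0.0946 and 0.364 CPM at 6 h and 0.528, 0.579 and 1.03 CPM at 12 h. The A2780cis controls had 2.22, 2.01 and 2.45 CPM and 2.65, 2.81 and 3.78 CPM, and the lowest of them lay above the highest A2780 control. The fitted difference was 6.76-fold over both times (log2 FC 2.76 ± 0.26 (SE), adjusted p = 7.78e-10).

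SNAI2 (chr8:48917598-48921740, minus strand) encodes Slug, the paralog of Snail, and ran the other way. Its A2780 controls had 52.3, 49.4 and 49.5 CPM at 6 h and 45.1, 47.3 and 51.1 CPM at 12 h, against 35.7, 42.9 and 39.0 CPM and 28.8, 26.0 and 25.7 CPM in A2780cis. Each A2780cis control lay below each A2780 control, and SNAI2 was 1.51-fold lower (log2 FC -0.60 ± 0.07 (SE), adjusted p = 6.37e-08). ZEB1 (chr10:31318495-31529814, plus strand) encodes a zinc finger homeobox repressor of epithelial genes. Its A2780 controls had 113, 103 and 107 CPM at 6 h and 77.2, 71.9 and 57.1 CPM at 12 h. Its A2780cis controls had 83.8, 83.9 and 73.3 CPM and 62.8, 52.2 and 49.0 CPM, apart from A2780 at 6 h and overlapping it at 12 h. ZEB1 was 1.30-fold lower over both times (log2 FC -0.37 ± 0.09 (SE), adjusted p = 0.000593). At 12 h alone (log2 FC -0.33, adjusted p = 0.0279) the call was lost without A2780 control 12 h replicate 1 or 2 or A2780cis control 12 h replicate 2 or 3, when the log2 FC was -0.23 to -0.29.

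ZEB2 (chr2:144364364-144521057, minus strand) encodes the paralog of ZEB1 and was present in A2780 only at a modest level, with 6.32, 6.15 and 5.00 CPM in the 6 h controls and 8.05, 7.70 and 5.96 CPM in the 12 h controls. In untreated A2780cis the gene was at the floor, with 1 count in 1 of 6 libraries and 0 in the others. ZEB2 was thus at least 30.2-fold lower in A2780cis over both times. TWIST1 (chr7:19020991-19117636, minus strand) encodes a basic helix-loop-helix factor of mesoderm and neural crest development that also induces mesenchymal genes. The A2780 controls had 39.5, 41.8 and 40.5 CPM at 6 h and 53.3, 57.9 and 63.0 CPM at 12 h. The A2780cis controls were at the floor with at most 2 counts per library, 0.185, 0.1003 and 0.0818 CPM at 6 h and 0.0963, 0 and 0.0540 CPM at 12 h. TWIST1 was at least 228-fold lower in A2780cis over both times, at least 148-fold at 6 h and at least 367-fold at 12 h. Both bounds rest on the floor of 3 counts and not on the fitted value.

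**Figure D2:**
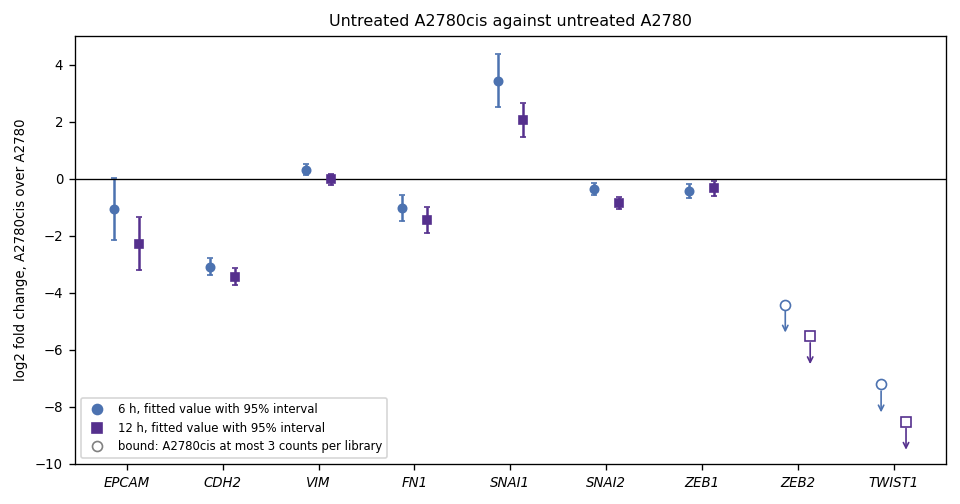
Log2 fold change of untreated A2780cis over untreated A2780 for the 9 tested genes at 6 h (circles) and 12 h (squares), with 95% intervals of the edgeR fit. Open symbols with arrows are the bounds of ZEB2 and TWIST1, whose A2780cis controls held at most 3 counts per library, and SNAI1 is the one gene that lies well above 0 at both times.

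Per kilobase of exon, the order of the genes changed between the lines below VIM. In untreated A2780 (mean ± SD of 6 libraries, in CPM per kb) VIM stood at 431 ± 38.9, followed by TWIST1 at 24.7 ± 5.05, SNAI2 at 14.96 ± 0.785, ZEB1 at 10.2 ± 2.59 and CDH2 at 5.59 ± 0.641. These 5 did not overlap their neighbours in the order. EPCAM, SNAI1, ZEB2 and FN1 followed between 0.163 and 0.333 CPM per kb with overlapping libraries. In untreated A2780cis VIM stood at 479 ± 41.3 CPM per kb, SNAI2 at 10.1 ± 2.20 and ZEB1 at 7.80 ± 1.77, and the last pair overlapped. SNAI1 came next at 1.56 ± 0.365 CPM per kb and stood above CDH2 at 0.597 ± 0.147 CPM per kb without overlap, the reverse of their order in A2780. EPCAM, FN1, TWIST1, CDH1 and ZEB2 were all at or below 0.106 CPM per kb, each overlapping its neighbour. Among the 5 factors the most abundant per kb was therefore TWIST1 in A2780 and SNAI2 with ZEB1 in A2780cis. The exon length of ZEB2 (26151 bases over all annotated transcripts) is much longer than that of the other genes and lowers its place in the order.

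Treatment with 5-FdU-ECyd lowered CDH2 and ZEB1 at both times in both lines, and VIM in A2780cis at both times and in A2780 at 12 h. In A2780, TWIST1 and ZEB2 also fell at both times. SNAI1 was called higher in 3 of the 4 comparisons and EPCAM in 1, and FN1 in none. In A2780 4 of the 9 genes were called at 6 h, all lower, against 29.4% of all tested genes called (16.0% higher and 13.4% lower). At 12 h 6 were called, 5 lower and 1 higher, against 54.8% (28.6% higher and 26.1% lower). Treated and control libraries of A2780 did not overlap for 4 genes at 6 h, against 41.6% of all tested genes, and for 5 at 12 h, against 64.0%. In A2780cis ZEB2 and TWIST1 stay among the 9 although they were at the floor, where no response could be seen. Of the 9, 5 were called in A2780cis at 6 h, 4 lower and 1 higher, against 30.7% (14.4% higher and 16.3% lower). At 12 h 6 were called, 4 lower and 2 higher, against 59.9% (31.0% higher and 28.9% lower). The libraries of A2780cis did not overlap for 5 genes at 6 h, against 43.2%, and for 6 at 12 h, against 59.6%. So many genes of the whole table responded at 12 h that the share called in either direction is near the background. The genes called lower at 12 h, 5 of 9 in A2780 and 4 of 9 in A2780cis, were a larger share than among all tested genes. Those called higher, 1 and 2 of 9, were a smaller share. Whether these shares differ from the background was not tested.

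CDH2 fell at both times. In A2780 the treated libraries had 32.5, 37.0 and 35.2 CPM at 6 h (log2 FC -0.51 ± 0.12, adjusted p = 0.00276) and 14.0, 13.4 and 15.5 CPM at 12 h (log2 FC -1.69 ± 0.13, adjusted p = 3.00e-11). In A2780cis they had 3.99, 2.85 and 3.39 CPM at 6 h (log2 FC -0.79 ± 0.17, adjusted p = 0.0011) and 1.27, 1.21 and 1.37 CPM at 12 h (log2 FC -1.74 ± 0.20, adjusted p = 3.11e-08). Treated libraries lay below the controls of the same line and time in all 4 comparisons. At 12 h CDH2 was at 30.9% of the control level in A2780 and 29.9% in A2780cis. The difference between the falls was -0.05 on the log2 scale (95% interval -0.49 to 0.39).

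For VIM, treated A2780 libraries at 6 h had 1801, 1981 and 1752 CPM, overlapping the controls, and the difference was not called (log2 FC -0.18 ± 0.09, adjusted p = 0.146). In A2780cis the treated libraries had 1732, 1637 and 1746 CPM, below every control (log2 FC -0.62 ± 0.09, adjusted p = 1.50e-05). The difference between these responses at 6 h was -0.44 on the log2 scale and did not pass the threshold (adjusted p = 0.0659), although it passed in DESeq2, with scaling by library size alone, and without A2780 control 6 h replicate 2 or A2780cis control 6 h replicate 1. At 12 h treated A2780 had 935, 837 and 815 CPM (log2 FC -1.46 ± 0.09, adjusted p = 1.99e-12). Treated A2780cis had 851, 788 and 889 CPM at 12 h (log2 FC -1.48 ± 0.09, adjusted p = 1.32e-12). The means after 12 h, 862 ± 64.0 CPM in A2780 and 843 ± 51.2 CPM in A2780cis (SD, n = 3), overlapped, and the falls differed by -0.02 on the log2 scale (95% interval -0.29 to 0.25). VIM was still the most abundant of the 10 genes in every group.

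FN1 was not called in any treatment comparison. Treated A2780 libraries had 2.73, 3.05 and 3.33 CPM at 6 h and 2.66, 3.08 and 3.01 CPM at 12 h, and treated A2780cis libraries 2.79, 2.34 and 1.74 and 1.02, 1.21 and 0.935 CPM. Each of these groups overlapped its controls, and in A2780 at 12 h 2 of 3 treated libraries lay above all controls. With scaling by library size alone FN1 passed at 12 h in A2780 (log2 FC 0.52), a setting that shifts the median of all genes to 0.24 there.

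ZEB1 was lower in treated A2780 at 6 h, with 51.7, 56.0 and 59.3 CPM (log2 FC -0.95 ± 0.13, adjusted p = 3.31e-06), and at 12 h, with 35.7, 34.0 and 34.9 CPM (log2 FC -0.98 ± 0.13, adjusted p = 3.61e-07). In A2780cis the treated libraries had 49.3, 39.7 and 41.7 CPM at 6 h (log2 FC -0.88 ± 0.13, adjusted p = 8.28e-06) and 19.5, 18.9 and 13.3 CPM at 12 h (log2 FC -1.67 ± 0.13, adjusted p = 6.83e-11). None of these groups overlapped its controls. The falls at 6 h differed by 0.06 between the lines (95% interval -0.30 to 0.43), and at 12 h the fall was deeper in A2780cis (difference -0.69 ± 0.18, adjusted p = 0.00756). ZEB2 in A2780 had 2.56, 3.89 and 3.19 CPM at 6 h (log2 FC -0.87 ± 0.21, adjusted p = 0.00347) and 2.31, 2.30 and 1.99 CPM at 12 h (log2 FC -1.71 ± 0.20, adjusted p = 2.04e-07), below every control. In A2780cis ZEB2 was at the floor with and without treatment, and no fold is given.

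For TWIST1, treated A2780 libraries had 32.5, 28.5 and 32.9 CPM at 6 h (log2 FC -0.37 ± 0.11, adjusted p = 0.0148) and 40.7, 38.5 and 37.6 CPM at 12 h (log2 FC -0.58 ± 0.11, adjusted p = 7.58e-05), below their controls without overlap. The 6 h call was lost without A2780 5-FdU-ECyd 6 h replicate 2, when the log2 FC was -0.31, and with scaling by library size alone. In A2780cis TWIST1 remained at the floor in every treated library.

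SNAI1 in treated A2780cis had 3.51, 3.72 and 4.71 CPM at 6 h (log2 FC 0.85 ± 0.25, adjusted p = 0.0124) and 5.40, 7.46 and 6.67 CPM at 12 h (log2 FC 1.08 ± 0.21, adjusted p = 0.000107), above every control at each time. In treated A2780 it had 0.341, 0.370 and 0.741 CPM at 6 h, overlapping the controls (log2 FC 1.30 ± 0.60, adjusted p = 0.106), and 0.841, 1.17 and 1.80 CPM at 12 h, which also overlapped (log2 FC 0.83 ± 0.32, adjusted p = 0.03). At 6 h the difference passed without A2780 control 6 h replicate 3 (log2 FC 1.95, edgeR, adjusted p = 0.0471) and was 0.82 without A2780 5-FdU-ECyd 6 h replicate 3. The call at 12 h was lost without A2780 control 12 h replicate 1 or 2 or A2780 5-FdU-ECyd 12 h replicate 3, with log2 FC of 0.49 to 0.69, and that of A2780cis at 6 h was lost without its control replicate 2 (log2 FC 0.78) or treated replicate 3 (log2 FC 0.69). SNAI2 in treated A2780 had 47.0, 50.2 and 51.5 CPM at 6 h and 54.7, 51.3 and 49.8 CPM at 12 h, overlapping its controls and not called at either time. In treated A2780cis it had 32.2, 25.05 and 27.8 CPM at 6 h (log2 FC -0.47 ± 0.10, adjusted p = 0.00131) and 23.5, 19.8 and 19.1 CPM at 12 h (log2 FC -0.37 ± 0.10, adjusted p = 0.00348), below its controls. The response of SNAI2 at 12 h differed between the lines by -0.49 ± 0.14 on the log2 scale (adjusted p = 0.0158).

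EPCAM was called only in A2780cis at 12 h. The treated libraries had 0.508, 0.861 and 1.122 CPM, all above their controls (log2 FC 2.07 ± 0.47, adjusted p = 0.000524), which brought the gene to the range of the A2780 controls. In treated A2780 at 12 h it had 1.96, 1.08 and 1.02 CPM, overlapping the controls (log2 FC 0.44 ± 0.32, adjusted p = 0.25). At 6 h the treated libraries had 0.682, 0.648 and 0.667 CPM in A2780 and 0.319, 0.0730 and 0.283 CPM in A2780cis, and neither was called. The responses at 12 h differed by 1.63 ± 0.58 on the log2 scale (adjusted p = 0.0427), a call kept only when the library left out was A2780 control 12 h replicate 2 or replicate 1 of one of the other 3 groups. Without any other of the 12 libraries the difference was 1.32 to 1.68, and the call was also lost in DESeq2.

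**Figure D3:**
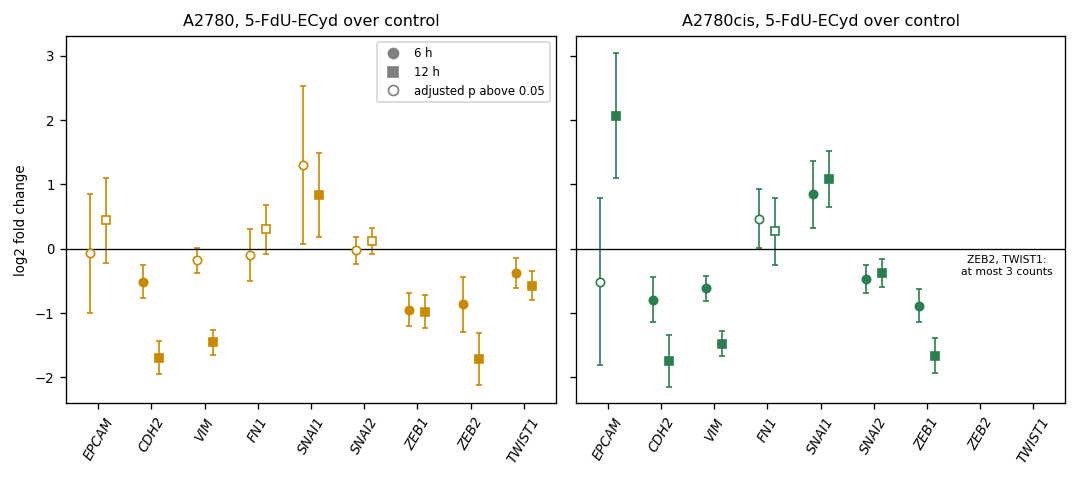
Log2 fold change of 5-FdU-ECyd over control for each gene in A2780 (left) and A2780cis (right), at 6 h (circles) and 12 h (squares), with 95% intervals of the edgeR fit and open symbols for adjusted p above 0.05. CDH2, VIM and ZEB1 lie below 0 at 12 h in both panels, SNAI1 lies above 0 throughout, and ZEB2 and TWIST1 are not drawn in A2780cis, where they held at most 3 counts per library.

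Of the 9 genes, 3 differed between the lines in their 12 h response (EPCAM, SNAI2 and ZEB1), 1 higher and 2 lower in A2780cis, against 23.7% of all tested genes (9.70% higher and 14.0% lower). ZEB2 and TWIST1 count among the 9, but at the floor in A2780cis they had no response to compare. At 6 h edgeR called 0 of 9, against 3.07% of all tested genes (0.692% higher and 2.38% lower), with 2 of them (VIM and SNAI2) at an unadjusted p of at most 0.05, and DESeq2 called 1, VIM.

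The control cells also moved between 6 h and 12 h, so that the treatment comparisons above were made within a time. In A2780 3 of 9 genes were called, 2 higher and 1 lower at 12 h, against 26.9% of all tested genes (16.6% higher and 10.3% lower), and 5 did not overlap, against 46.1%. TWIST1 was higher at 12 h (log2 FC 0.52 ± 0.11, adjusted p = 0.00237) without overlap, ZEB1 was lower (log2 FC -0.65 ± 0.12, adjusted p = 0.00127) without overlap, and SNAI1 was higher (log2 FC 1.84 ± 0.52, adjusted p = 0.0129). The call of SNAI1 was lost without A2780 control 6 h replicate 1 or 2 or A2780 control 12 h replicate 3, with log2 FC of 1.45 to 1.62. In A2780cis ZEB2 and TWIST1, at the floor, could not be seen to move but count among the 9. There 4 were called, all lower at 12 h, against 39.9% of all tested genes (18.0% higher and 21.9% lower), and 5 did not overlap, against 48.9%. They were ZEB1 (log2 FC -0.55), SNAI2 (-0.54), FN1 (-0.88) and CDH2 (-0.45). The calls of FN1 and CDH2 were lost without A2780cis control 6 h replicate 2, with log2 FC of -0.71 and -0.26, and that of CDH2 also without A2780cis control 12 h replicate 1 or 3. ZEB1 was thus lower at 12 h than at 6 h in untreated cells of both lines.

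Other genes of the same programme were read from lists of markers, regulators and inputs of the transition. Of 17 listed genes of epithelial structure 9 passed the filter, and KRT7, DSP, CLDN3 and ST14 were among those that did not. Between the untreated lines 3 of the 9 were higher in A2780cis and 3 lower, with a median log2 FC of -0.22. The shares of all tested genes called higher and lower here were 31.1% and 30.2%, so that these counts are near the background. KRT18, a keratin of simple epithelia, had 1.46 ± 0.535 CPM in A2780 and 24.8 ± 2.17 CPM in A2780cis (SD, n = 6; log2 FC 4.14 ± 0.13, adjusted p = 2.67e-20). Its partner KRT8, which falls outside the rule for named genes and was chosen after its values were seen, moved alike (0.948 ± 0.335 and 4.91 ± 1.16 CPM). JUP, which encodes the junction protein plakoglobin, was lower (log2 FC -3.01 ± 0.16, adjusted p = 2.15e-15), and OCLN, which encodes the tight junction protein occludin, was slightly higher (log2 FC 0.42). Of these 4 genes the keratins and OCLN were thus higher in A2780cis and JUP lower. Of 11 epithelial regulators 5 passed, 1 higher and 2 lower, beside 31.1% and 30.2% of all tested genes, and GRHL2 had no count in any library.

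Of 18 genes of mesenchymal structure and matrix 17 passed, 5 higher and 10 lower in A2780cis, beside 31.1% and 30.2% of all tested genes called higher and lower. The median log2 FC of the list was -1.17 and that of all tested genes 0.00. VCAN, which encodes the matrix proteoglycan versican, had 54.9 ± 5.43 CPM in A2780 and 0.308 ± 0.112 CPM in A2780cis (log2 FC -7.47). ACTA2, which encodes smooth muscle actin, had 64.2 ± 11.1 against 3.44 ± 0.596 CPM (log2 FC -4.22). TAGLN, another smooth muscle gene, had 113 ± 12.3 against 13.8 ± 2.39 CPM (log2 FC -3.04). COL3A1, a fibrillar collagen gene, went the other way, from 256 ± 44.5 to 1998 ± 137 CPM (log2 FC 2.98). COL1A2, chosen after its values were seen, was at the floor in untreated A2780cis and at least 215-fold lower than in A2780 (46.5 ± 12.82 CPM). The collagen genes thus did not move as 1 group.

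Of 9 further mesenchymal regulators 5 passed, 2 higher and 2 lower, beside 31.1% and 30.2% of all tested genes. The E proteins TCF3 and TCF4, which pair with TWIST1 to bind DNA, differed in opposite directions (log2 FC 0.93 and -0.48). A pair chosen after their values were seen lay at opposite extremes. PRRX1, a mesenchymal homeobox factor, was at the floor in untreated A2780cis and at least 126-fold lower than in A2780 (27.2 ± 2.50 CPM), whereas TWIST2, the paralog of TWIST1, had 0.147 ± 0.142 CPM in A2780 and 5.24 ± 0.760 CPM in A2780cis. At 6 h, where the A2780 controls were at the floor, TWIST2 was at least 19.2-fold higher in A2780cis.

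Of 12 genes of the cadherin-catenin complex and polarity all passed, 6 higher and 3 lower in A2780cis, beside 31.1% and 30.2% of all tested genes called higher and lower. CTNND1, which encodes the catenin p120 that steadies cadherins at the membrane, was higher (log2 FC 1.19 ± 0.06, adjusted p = 4.52e-15), and so were the polarity genes LLGL2 (log2 FC 1.39) and SCRIB (0.81). VCL, which encodes the actin linker vinculin, was lower (log2 FC -1.77 ± 0.07, adjusted p = 1.12e-17). Of 17 genes of the TGF-beta pathway, which induces the factors above, 16 passed, 9 higher and 3 lower, against the same shares of all tested genes. TGFB3, a ligand, and the listed genes ID1 and ID3 were higher (log2 FC 1.59, 0.97 and 0.93), and the coreceptor TGFBR3 was lower (-1.62).

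**Figure D4:**
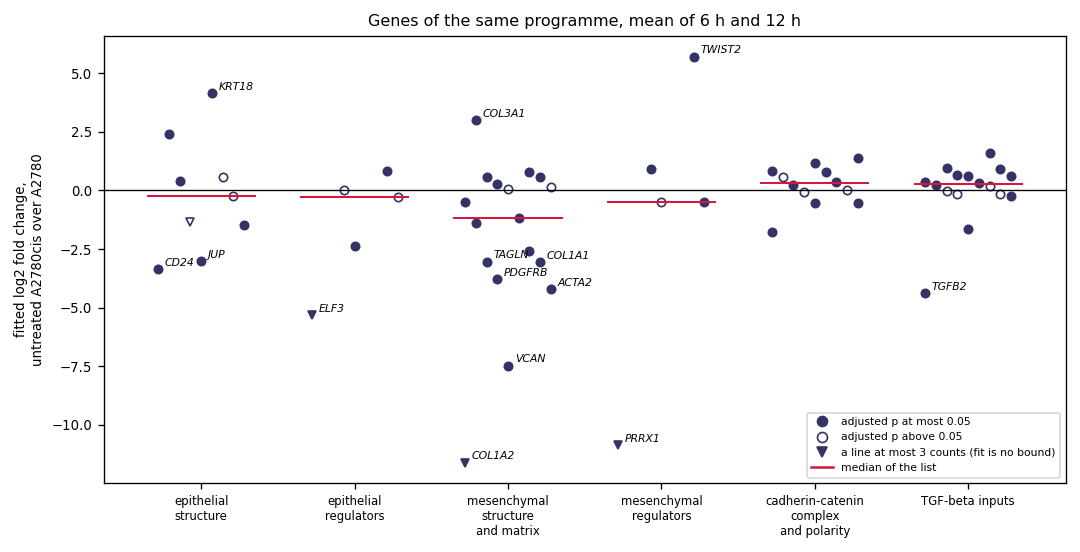
Fitted log2 fold change of untreated A2780cis over untreated A2780 (mean of both times) for the tested genes of 6 lists, 1 point per gene, with the median of each list as a red line, open symbols for adjusted p above 0.05 and triangles for genes with at most 3 counts in each library of a line, whose fitted value is no bound. Points of the mesenchymal structure and matrix list spread from COL1A2 and VCAN far below 0 to COL3A1 above it, and the median of that list, -1.17, is the lowest of the 6.

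After 12 h of 5-FdU-ECyd 26.1% of all tested genes were called lower and 28.6% higher in A2780, and 28.9% lower and 31.0% higher in A2780cis, and the counts of the lists stand beside these shares. Of the 12 junction and polarity genes, 5 fell and 1 rose in A2780, and 8 fell and 2 rose in A2780cis. PARD3, a polarity scaffold, fell in both (log2 FC -1.64 and -2.12), as did VCL (-1.56 and -1.20) and TJP1, which encodes the tight junction protein ZO-1 (-0.89 and -1.61). CTNNA1, which encodes the catenin that ties cadherins to actin, also fell in A2780 (log2 FC -0.74 ± 0.08, adjusted p = 8.81e-09). CTNND1 fell in A2780cis (log2 FC -1.27) and its change in A2780 was 0.05 on the same scale (adjusted p = 0.667). Of the 17 genes of mesenchymal structure, 7 rose and 5 fell in A2780, and 8 rose and 3 fell in A2780cis. TAGLN rose in both lines (log2 FC 1.19 and 1.32), as did AXL, a receptor kinase of mesenchymal cells (1.17 and 1.02), while VCAN (-1.61) and COL5A2 (-1.11) fell in A2780. SPARC (0.82) and S100A4 (0.78) rose in A2780cis.

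The E proteins fell in both lines at 12 h, TCF3 (log2 FC -1.17 in A2780, -1.66 in A2780cis) and TCF4 (-0.62, -1.09). Among epithelial genes MUC1, a surface mucin, rose in both lines (log2 FC 0.53 and 0.78), and the call in A2780 was lost without control replicate 1 or treated replicate 2 (log2 FC 0.45 and 0.47). OCLN fell in both (log2 FC -0.32 and -0.61), in A2780 not with scaling by library size alone (log2 FC -0.10), and KRT18 rose in A2780 (0.69). GRHL3, a grainyhead factor of surface epithelia chosen after its values were seen, rose in both lines (log2 FC 5.15 and 4.48). Its 6 h controls were low, with a mean of 0.533 CPM in A2780 and at most 1 count per library in A2780cis. Folds of this size may thus rest on few control counts. Of the 9 epithelial structure genes 4 rose and 2 fell in A2780, beside 28.6% and 26.1% of all tested genes, and 3 in all were called without A2780 5-FdU-ECyd 12 h replicate 2. In A2780cis 1 rose and 1 fell, beside 31.0% and 28.9%. Of the 5 epithelial regulators tested 3 rose in A2780 and 2 in A2780cis, and none was called lower in either, beside the same shares.

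Of the TGF-beta genes, in A2780 6 of 16 rose and 4 fell at 12 h, and in A2780cis 1 rose and 9 fell. Of all tested genes 28.6% rose and 26.1% fell in A2780, and 31.0% rose and 28.9% fell in A2780cis. The difference itself was called for 10 of the 16, all lower in A2780cis, against 14.0% of all tested genes called lower. SMAD3, which carries the receptor signal to the nucleus, rose in A2780 (log2 FC 1.92 ± 0.11, adjusted p = 3.57e-13) and fell in A2780cis (log2 FC -0.47 ± 0.12, adjusted p = 0.00121). TGFBR1 and SMAD7 rose in A2780 (log2 FC 0.63 and 0.61). ID3, SKI, SMAD6 and SMAD4 fell in A2780cis (log2 FC -1.53, -1.40, -1.19 and -0.95), and SKI, a repressor of the pathway, fell in A2780 as well (-0.61), though not with scaling by library size alone (log2 FC -0.38).

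Genes near TWIST1, ZEB2 and CDH2 were read as well, a choice made after the values were seen. For TWIST1, of 5 tested neighbours within 1 Mb, 4 were lower in A2780cis and none higher, beside 30.2% of all tested genes called lower. HDAC9, which encodes a class IIa histone deacetylase and lies beside TWIST1 on chromosome 7, had 86.5 ± 7.76 CPM in A2780 and at most 2.1 counts in a library of untreated A2780cis, at least 399.8-fold lower. ENSG00000232821, an antisense transcript that shares 141 exon bases with TWIST1, had 4.25 ± 0.911 CPM in A2780 and no count in untreated A2780cis. POLR1F, which encodes a subunit of RNA polymerase I, lies on the other side and did not pass the threshold (64.3 ± 16.0 and 68.5 ± 15.4 CPM, log2 FC 0.09 ± 0.09, adjusted p = 0.356). Beyond POLR1F on that side, the noncoding transcript ENSG00000243004 (log2 FC -0.75, adjusted p = 2.36e-05) and the pseudogene RPL21P75 (log2 FC -0.51, adjusted p = 0.00028) were lower. RPL21P75 lies within the span of ENSG00000243004, so that the 4 lower neighbours are not all separate. Around ZEB2 the 1 tested neighbour, GTDC1, was not called either (log2 FC 0.04 ± 0.10, adjusted p = 0.717). Both tested neighbours of CDH2 were lower, against the same share. The sulfotransferase gene CHST9 had 0.739 ± 0.106 CPM in A2780 and no count in untreated A2780cis. The other, the antisense transcript ENSG00000227279, shares 307 exon bases with CDH2, 3.58% of the CDH2 exon bases. Reads over these bases cannot be told apart. No DNA copy number or chromatin was analysed here, and the state of these loci was not tested.

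Several of the 10 genes share exon bases with a transcript of the opposite strand. Since the strand setting of the counting is not given in the sources used here, reads over the shared bases cannot be told apart. ZEB1-AS1 shares 396 bases with ZEB1, 4.58% of the ZEB1 exon bases. It was lower as ZEB1 was between the untreated lines (log2 FC -0.81, edgeR, adjusted p = 5.72e-06) and in A2780 treated for 6 h (log2 FC -1.02, edgeR, adjusted p = 0.000405). In A2780cis at 6 h its log2 FC was -0.06 (edgeR, adjusted p = 0.877). At 12 h it was higher by 0.97 on the log2 scale in treated A2780 (edgeR, adjusted p = 1.00e-05) and by 1.43 in treated A2780cis (edgeR, adjusted p = 6.14e-08), while ZEB1 fell. The antisense transcripts of VIM were lower at 12 h as VIM was, VIM-AS1 (log2 FC -1.56 in A2780, -1.37 in A2780cis) and ENSG00000234961 (-1.46, -1.497). They share 656 and 619 exon bases with VIM, 12.7% and 12.0% of the VIM exon bases.

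The genes whose log2 CPM ran most like that of a member over the 24 libraries are given as a description, since the libraries share lines and treatments. For CDH2 they included ANK3 (r = 0.991) and KLHDC10. For VIM they were its antisense transcript ENSG00000234961 (r = 0.996), PREP and SF3B3, and for ZEB1 CHD1 (r = 0.992), DDHD1 and GNAQ. TWIST1 ran with CXXC4 (r = 0.995), COL6A3 and SHOX2. SNAI1 ran with ARRDC2 (r = 0.973), CORO6 and STXBP2, SNAI2 with SKA3 (r = 0.961), POLD3 and USP12, and FN1 with ZNF286A (r = 0.937), HUS1 and RNF6. Between members, TWIST1 and ZEB2 had r = 0.982 and CDH2 and SNAI1 r = -0.946, and these values carry the difference between the lines.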

How the data were processed

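Total RNA of 24 libraries was prepared with a stranded kit after depletion of ribosomal RNA. The submitters' processing notes and methods name bcl2fastq, Trimmomatic, STAR 2.5.2b on GRCh38 and featureCounts on exons, with a read that maps to several places shared as fractions and reads over several genes allowed. The strand setting is not given in the sources used here. The values the authors deposited are therefore estimated counts per gene, of which 9.50 to 12.75% per library are not whole, and they were rounded before the fit.

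Genes were kept with filterByExpr (minimum count 10, minimum total count 15), and 20240 of 63299 remained. One model with 8 group means was fitted to all 24 libraries with TMM scaling and the quasi-likelihood test of edgeR 4.0.16 in R 4.3.3, and p-values were adjusted over all genes tested (Benjamini-Hochberg). The SE was taken as the absolute log2 fold change over the root of its F value. The code was tested on simulated data. DESeq2 1.42.0, other scalings, no filter, a fit of the compared libraries alone, the replicate number as a block and leaving out each library in turn were tried as alternatives. For the genes of the lists these alternatives were added after seeing the data. Python 3.11.15, pandas 2.3.3 and matplotlib 3.10.9 served for tables and plots.

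The 10 genes and all lists were chosen with earlier results of these data known. All 10 are named. From each list, up to 4 genes past the threshold with the largest absolute log2 fold change are named, where their average log2 CPM reached 2, for the line comparison and the 12 h treatment comparisons, and for each of the 10 genes whose average log2 CPM reached 0 the 3 genes most correlated with it. Other names are said to be chosen after their values were seen. Some genes that these rules would take in are not reported here.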

Additional observations from a re-analysis of the deposited data

Results flagged for a closer look

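The responses to 5-FdU-ECyd of the named genes below differed between the lines by the interaction term of the edgeR fit, given as the log2 fold change in A2780cis minus that in A2780. Of the 10 identity genes these were EPCAM (1.63), SNAI2 (-0.49) and ZEB1 (-0.69), all at 12 h. At 6 h the difference was called for ID3 (-0.82), SMAD3 (-0.98) and SKI (-1.14). At 12 h it was called for the TGF-beta genes SMAD3 (-2.39), ID3 (-1.27), SMAD4 (-0.84), TGFBR3 (-0.83), ID1 (-0.80), SKI (-0.79), TGFBR1 (-0.68) and SMAD6 (-0.59). Among junction and polarity genes it was called at 12 h for CTNND1 (-1.32), TJP1 (-0.72) and PARD3 (-0.47). The keratin gene KRT18 (-0.78) responded lower in A2780cis at 12 h, and the matrix and muscle genes ACTA2 (0.59) and COL5A2 (0.59) higher.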

How the results depend on the processing

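For the 10 genes, 587 of 610 values under another scaling, filter, tool or set of libraries kept direction and call, 12 lost the call, 6 gained it and 5 changed sign. Of 672 values with 1 library left out, 615 kept both, 33 lost the call, 3 gained it and 21 changed sign. All signs that changed belonged to differences that were not called. With scaling by library size alone SNAI2 was 0.040 in A2780 at 6 h of treatment and VIM 0.013 in untreated A2780cis over time. That scaling moves the median of all genes from 0.02 to 0.24 for A2780 treated for 12 h. With only the compared libraries fitted, the 12 h difference in response between the lines was 0.00754 for CDH2, 0.041 for VIM and 0.025 for FN1. The number of genes whose 6 h response differed between the lines was 1 with scaling by library size and 1 with DESeq2, against 0, and ranged from 0 to 1 with 1 library left out. The number called in untreated A2780cis over time ranged from 2 to 4, with 2 without A2780cis control 6 h replicate 2. With 1 library left out, VIM between the lines at 12 h ranged from -0.038 to 0.040. For treatment of A2780 at 6 h, EPCAM ranged from -0.26 to 0.38 and SNAI2 from -0.054 to 0.012. For the difference in response at 6 h, EPCAM ranged from -0.89 to 0.014, SNAI1 from -1.11 to 0.026 and ZEB1 from -0.031 to 0.12. For that at 12 h, CDH2 ranged from -0.13 to 0.045, VIM from -0.075 to 0.064, FN1 from -0.14 to 0.087 and SNAI1 from -0.14 to 0.61. The cause of these changes was not tested.

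Deviations of same-numbered libraries from their group means correlated at -0.655 to 0.612, with 6 of 18 pairs over 0.1. For treated against control they were -0.66, 0.17 and -0.51 in A2780 at 6 h. In A2780cis at 12 h they were 0.61, 0.26 and 0.09. With 3 libraries per group these values do not decide whether the numbers pair the libraries. With the replicate number as a block, the counts of called genes were those given above, 9 between the lines over both times and 3 for the 12 h difference in response. Depth limits CDH1, and ZEB2 and TWIST1 in A2780cis, for which only limits or bounds can be given, and the low counts of EPCAM give it wide intervals.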
